A study of Mus musculus with 4 samples.

Results

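The genes described here are 10 mouse crystallin genes, Cryaa, Cryab, Cryba1, Cryba2, Cryba4, Crybb1, Crybb2, Crybb3, Crygb and Crygd, out of 18193 genes named on the arrays. They were taken with every probe set annotated to 1 of these symbols alone, which gave 12 of the 34945 probe sets with a single gene symbol. The list was selected on the signals of the same 4 arrays, on their contrast between tissues and on their contrast between genotypes, so each level and ratio below is a description and carries no test. RNA of mandible and maxilla and RNA of brain were hybridised to Affymetrix Mouse Genome 430 2.0 arrays, with 1 array for each of 4 groups: wild type mandible and maxilla, FoxO6-/- mandible and maxilla, wild type brain and FoxO6-/- brain.

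The labels give the age of every group as postnatal day 0, whereas the methods describe late embryos. In FoxO6-/- mice a LacZ and a neomycin cassette replace the genomic stretch with the FoxO6 exons, in a line from 2 germline chimeras made with C57BL/6 embryonic stem cells and kept on that background. The deletion is constitutive, and the wild type groups carry neither cassette. The methods state that the RNA on a mandible and maxilla array came from 4 animals, and elsewhere describe pools of 4 without naming the tissue, which may cover the brain arrays too. They mention that mutant pools held heterozygotes beside nulls, although the labels give FoxO6-/- alone. There is no probe set named Foxo6, so the genotype labels could not be checked on the arrays. With 1 array per group no value has a replicate, and neither the spread between animals nor that between arrays can be given.

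The vertebrate lens is built of long fibre cells packed with crystallins, the proteins that give it transparency and refractive power. The alpha-crystallins are small heat shock proteins that keep other proteins from aggregating, whereas the beta- and gamma-crystallins are structural proteins folded into Greek key domains. Most crystallin genes are transcribed mainly in the lens, but Cryab is also transcribed in heart, skeletal muscle and glia. In the lens, transcription of these genes depends on Maf, Sox and Pax6 factors.

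Promoters of 9 of the 10 genes were matched by symbol to RefSeq sequence of build GRCm38.p6, and Cryab was not. The following 6 are shown as examples and were not ranked by signal. They hold 5 genes with clear signal on the brain arrays and Crybb2, the gene without it. Cryba2, Cryba4 and Crybb3 also had clear signal there and are not shown. Each is the 150 bases just before the annotated start site, 5′ to 3′ on the strand of the gene. Capitals mark 3 motifs. The first is the core of the Maf recognition element, TGCTGA. A Sox motif, written as ACAATG, is the second. The last is a TATA box pattern chosen with these sequences in view, TATANA. They lie at chr17:31677781-31677930 (plus strand) for Cryaa, chr11:77725294-77725443 (minus strand) for Cryba1, chr5:112255670-112255819 (plus strand) for Crybb1, chr5:113070118-113070267 (minus strand) for Crybb2, chr1:65082291-65082440 (minus strand) for Crygb and chr1:65063441-65063590 (minus strand) for Crygd.
Cryaa promoter: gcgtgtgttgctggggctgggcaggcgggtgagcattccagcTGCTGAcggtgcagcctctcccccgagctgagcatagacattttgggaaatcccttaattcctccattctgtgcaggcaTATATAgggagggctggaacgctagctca
Cryba1 promoter: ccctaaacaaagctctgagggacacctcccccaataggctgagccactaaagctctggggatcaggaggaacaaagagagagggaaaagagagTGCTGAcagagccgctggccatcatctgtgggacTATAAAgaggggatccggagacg
Crybb1 promoter: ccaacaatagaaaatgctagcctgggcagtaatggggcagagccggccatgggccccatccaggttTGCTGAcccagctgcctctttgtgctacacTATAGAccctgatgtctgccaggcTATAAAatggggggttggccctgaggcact
Crybb2 promoter: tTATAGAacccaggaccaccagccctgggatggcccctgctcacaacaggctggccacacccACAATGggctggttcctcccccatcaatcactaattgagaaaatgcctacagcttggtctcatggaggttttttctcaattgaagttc
Crygb promoter: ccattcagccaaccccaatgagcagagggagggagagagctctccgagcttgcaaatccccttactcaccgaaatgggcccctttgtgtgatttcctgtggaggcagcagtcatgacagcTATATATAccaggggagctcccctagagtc
Crygd promoter: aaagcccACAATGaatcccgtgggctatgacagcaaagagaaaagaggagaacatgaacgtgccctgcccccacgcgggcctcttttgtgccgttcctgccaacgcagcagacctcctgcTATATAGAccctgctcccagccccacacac

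The motifs were searched in windows of 300 bases, from 250 before to 50 after each start site, TGCTGA and ACAATG on both strands and TATANA on the strand of the gene. TGCTGA was found in 6 of the 9 windows (Cryaa, Cryba1, Cryba2, Cryba4, Crybb1 and Crybb3) and in 19.5% of 32851 promoters of the same length. Counted from the start site, it began at -108 in Cryaa, at -84 in Crybb1 and at -57 in Cryba1. ACAATG was found in 3 windows (Cryaa, Crybb2 and Crygd) and in 12.6% of all promoters. TATANA was found in 7 windows (Cryaa, Cryba1, Cryba2, Crybb1, Crybb2, Crygb and Crygd) and in 18% of all promoters. Since the pattern was chosen with these sequences in view, nothing is read from that count. Cryba4 and Crybb3, whose sequences are not shown, had no match to TATANA. In Cryaa TATANA began at -29, in Crybb1, Crygb and Crygd at -30 and in Cryba1 at -23, whereas in Cryba2 it began at -3 and in Crybb2 at -149. Crybb1 held another match at -54, and Crygb and Crygd each held an overlapping one at -28. The windows were located from the annotation alone, and a match of letters is not evidence that a factor binds. In the RefSeq gene order Crygb lies between Crygc and Cryga and Crygd between Cryge and Crygc, Cryba4 lies beside Crybb1, Crybb2 beside Crybb3, and Cryab beside Hspb2.

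The deposited intensity is the MAS5 signal, a linear value that the authors scaled so that the trimmed mean of every array is 500.0. A gene was represented by its brightest probe set and counted as measured in a comparison where the mean of the compared signals reached 101, the median of all signals, called the floor here. Of the 10 crystallin genes 8 stood above the floor on both brain arrays and below it on both mandible and maxilla arrays, in either genotype. These were Cryaa, Cryba1, Cryba2, Cryba4, Crybb1, Crybb3, Crygb and Crygd. Cryab stood above the floor on all 4 arrays, and Crybb2 reached it on 1. Levels of different genes were not compared, since probe sets differ in brightness.

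**Figure D1:**
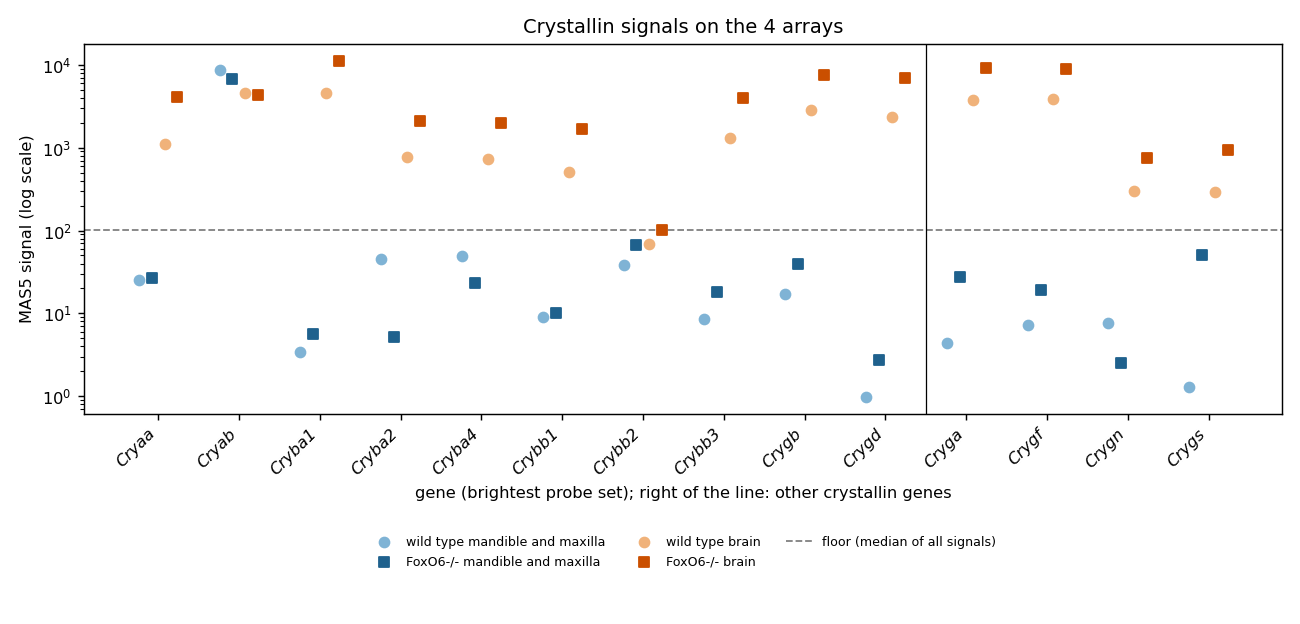
MAS5 signal (log scale) of the brightest probe set of each crystallin gene on the 4 arrays, 1 array per point, with the 10 genes described left of the vertical line and Cryga, Crygf, Crygn and Crygs right of it. The dashed line is the floor of 101: 8 of the 10 genes lie above it on both brain arrays and below it on both mandible and maxilla arrays, Cryab lies above it on all 4, and Crybb2 reaches it only on the FoxO6-/- brain array.

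Cryaa, which encodes the lens-restricted alpha A chaperone, had a signal of 25.0 on the wild type mandible and maxilla array and 26.8 on the FoxO6-/- one, against 1093 on the wild type brain array and 4112 on the FoxO6-/- one. Both brain signals lie far above both mandible and maxilla signals, and the FoxO6-/- brain signal is the higher of the brain pair, 3.76-fold above wild type (log2 ratio 1.91). Because the mandible and maxilla signals are below the floor, the tissue difference is given as a bound, brain over the floor, and is at least 10.9-fold in wild type and at least 40.8-fold in FoxO6-/-.

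Among the acidic beta-crystallins, Cryba1 had signals of 3.45 in wild type and 5.66 in FoxO6-/- mandible and maxilla, against 4630 in wild type and 11184 in FoxO6-/- brain. It encodes the beta A3 and beta A1 chains, made from 1 transcript. Its brain signal was 2.42-fold higher in FoxO6-/- (log2 ratio 1.27), and brain was at least 46.0-fold above mandible and maxilla in wild type and at least 111-fold in FoxO6-/-. Cryba2 had 45.5 and 5.13 in mandible and maxilla and 761 and 2119 in brain. Both mandible and maxilla signals are under the floor, where values are given no order. The brain ratio of Cryba2 was 2.78-fold (log2 1.48), and brain was at least 7.56-fold above mandible and maxilla in wild type and at least 21.0-fold in FoxO6-/-. Cryba4, whose gene lies beside Crybb1, had 48.8 and 23.5 in mandible and maxilla and 723 and 1965 in brain. Its brain signal was 2.72-fold higher in FoxO6-/- (log2 1.44), and brain was at least 7.18-fold above mandible and maxilla in wild type and at least 19.5-fold in FoxO6-/-. The 3 acidic genes thus had brain log2 ratios between 1.27 and 1.48.

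The basic beta-crystallins did not share one pattern. Crybb1, a chain of the large beta-crystallin oligomers, had signals of 8.99 and 10.2 in wild type and FoxO6-/- mandible and maxilla and of 514 and 1664 in wild type and FoxO6-/- brain. The FoxO6-/- brain signal was 3.24-fold higher (log2 ratio 1.69), and brain stood at least 5.11-fold above mandible and maxilla in wild type and at least 16.5-fold in FoxO6-/-. Crybb3 had 8.56 and 18.2 in mandible and maxilla and 1306 and 3960 in brain. It was 3.03-fold higher in FoxO6-/- brain (log2 1.60), with bounds between tissues of at least 13.0-fold in wild type and at least 39.3-fold in FoxO6-/-. Crybb2, which in rodents accumulates in the lens mostly after birth, had 38.7 and 66.4 in mandible and maxilla and 68.9 and 100.9 in brain. Only the FoxO6-/- brain signal of Crybb2 reached the floor, and it did so just inside it, so Crybb2 counted as measured in 0 comparisons. Of the 10 genes it was the single one without a clear signal in any group.

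The gamma-crystallins, monomers packed into the dense centre of the lens, were represented by Crygb and Crygd. Crygb had signals of 17.3 and 39.5 in wild type and FoxO6-/- mandible and maxilla and of 2824 and 7530 in wild type and FoxO6-/- brain. Its brain signal was 2.67-fold higher in FoxO6-/- (log2 1.41), and brain was at least 28.0-fold above mandible and maxilla in wild type and at least 74.8-fold in FoxO6-/-. Crygd had 0.987 and 2.75 in mandible and maxilla and 2372 and 7018 in brain. It was 2.96-fold higher in FoxO6-/- brain (log2 1.57), with bounds of at least 23.6-fold and at least 69.7-fold between tissues. The gamma-crystallin genes are near copies of each other, so part of the signal of 1 may come from another. A probe set annotated to both Crygc and Crygb had 5.08 and 3.94 in mandible and maxilla and 4102 and 11207 in brain, a brain log2 ratio of 1.45 beside 1.41 for the probe set of Crygb alone.

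Cryab, the alpha B chaperone, was the exception among the measured genes. Its brightest probe set had signals of 8540 in wild type and 6703 in FoxO6-/- mandible and maxilla, against 4516 in wild type and 4297 in FoxO6-/- brain. Here mandible and maxilla exceeded brain, with log2 ratios of 0.92 in wild type and 0.64 in FoxO6-/-, and the genotypes differed by a log2 ratio of -0.35 in mandible and maxilla and -0.07 in brain. A second Cryab probe set had 1397 and 1049 in mandible and maxilla and 663 and 752 in brain. Its log2 ratios were 1.08 and 0.48 between tissues, in wild type and FoxO6-/-, and -0.41 and 0.18 between genotypes, in mandible and maxilla and in brain, so the brain ratio of Cryab differs in sign between its probe sets. Median centring of the arrays also turned the brain ratio of the brightest one, to 0.07. The third probe set, with signals between 20.9 and 39.2, was below the floor on every array.

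The genes next to or related to Cryab were taken from a list of other small heat shock proteins, a family whose members Hspb2, Hspb3, Hspb6 and Hspb7 are known mainly from muscle and heart. Hspb2, the neighbour of Cryab, had 987 and 1071 in wild type and FoxO6-/- mandible and maxilla and 505 and 456 in wild type and FoxO6-/- brain, with log2 ratios between genotypes of 0.12 and -0.15. All 6 measured genes of the list were higher in mandible and maxilla than in brain, in wild type with a median log2 ratio of 1.28 and in FoxO6-/- of 1.71, as Cryab was. In brain, where 57.3% of all measured genes were higher in FoxO6-/-, 6 of 6 had a lower signal in FoxO6-/-, with a median log2 ratio of -0.55, and 1, Hspb7, was at least 2-fold lower, at 871 in wild type and 401 in FoxO6-/- (log2 -1.12). Hspb1, the widely expressed member of the family, had 11522 and 12510 in mandible and maxilla and 4194 and 3689 in brain.

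**Figure D2:**
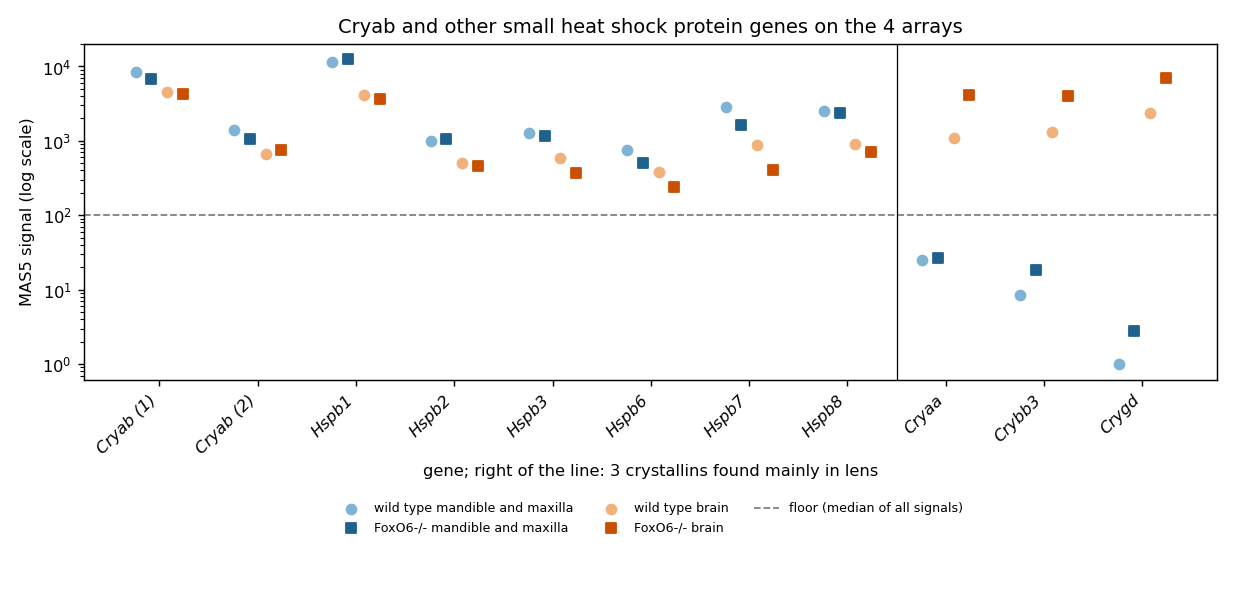
MAS5 signal (log scale) on the 4 arrays of the 2 brighter Cryab probe sets, numbered by brightness, of 6 other small heat shock protein genes, and, right of the vertical line, of Cryaa, Crybb3 and Crygd for contrast. Cryab and the 6 genes lie above the floor of 101 on all 4 arrays with the mandible and maxilla points above the brain points, whereas the 3 genes at the right lie below it in mandible and maxilla.

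In FoxO6-/- against wild type brain, 9 of the 10 genes were measured and 8 had a signal at least 2-fold higher, while 0 were at least 2-fold lower. Over all 12327 genes measured in this comparison, 1.13% were higher by 2-fold or more and 2.03% were lower by as much, with a median log2 ratio of 0.05 and an SD over genes of 0.47, and 57.3% had a ratio above 0. The median of the 9 genes was 1.48. Without Cryab the log2 ratios of the other 8 ran from 1.27 (Cryba1) to 1.91 (Cryaa), with an SD over these genes of 0.20. Genes of 1 array pair are not replicates, and because this contrast was among the values used to choose the genes, nothing is read from these counts. As a measure of how far probe sets of 1 gene differ, the brain log2 ratios of the 2 brightest probe sets differed with an SD of 0.39 over 4927 genes. In the order of all 12327 brain ratios from the highest, Cryaa stood at place 16, Crybb1 at 25, Crybb3 at 32, Crygd at 35, Cryba2 at 40, Cryba4 at 41, Crygb at 47 and Cryba1 at 72, and Cryab at 8171. In RNA of whole tissue, more cells with crystallin RNA and more crystallin RNA per cell cannot be told apart. The labels do not say whether eye tissue was part of the brain samples, and the source of the crystallin RNA was not tested.

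**Figure D3:**
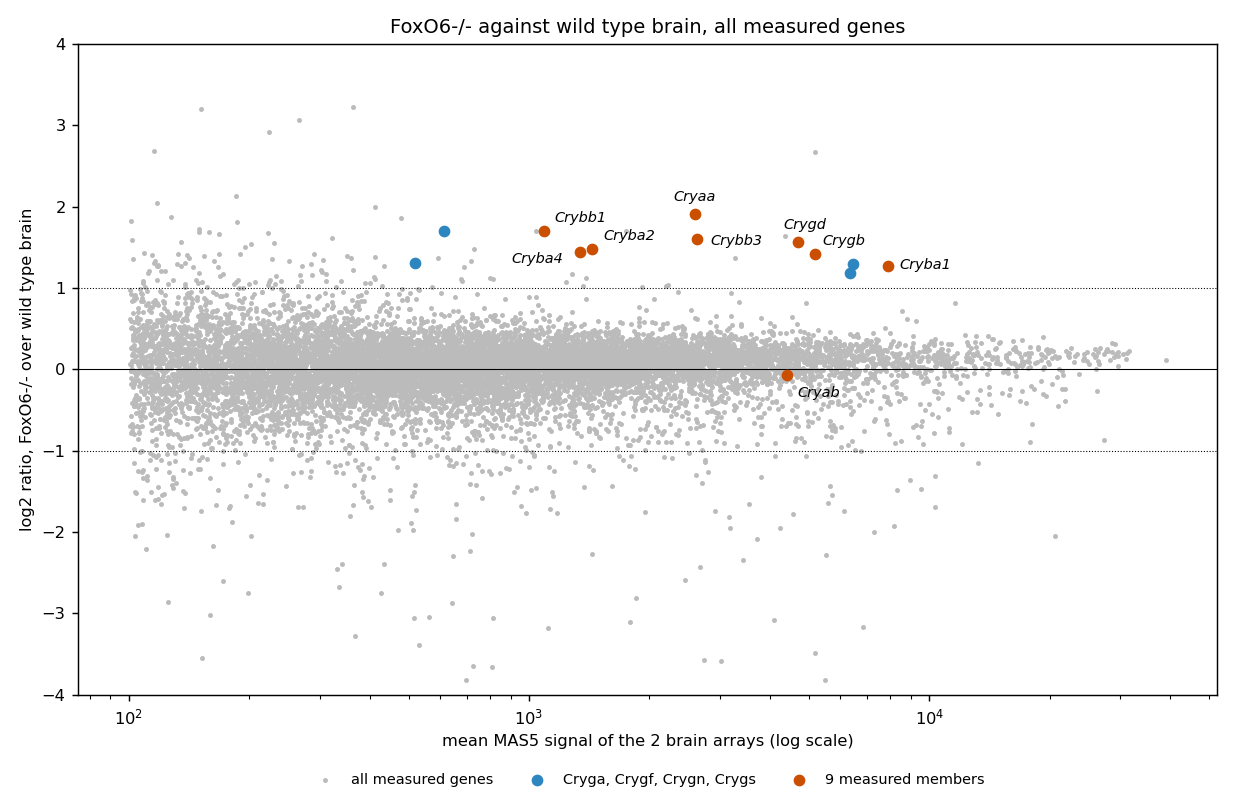
log2 ratio of FoxO6-/- over wild type brain against the mean MAS5 signal of the 2 brain arrays (log scale), 1 point per measured gene, with dotted lines at 2-fold and with 10 genes beyond a log2 ratio of 4 in either direction left outside the axis. The 8 crystallin genes other than Cryab lie between 1.27 and 1.91, Cryga, Crygf, Crygn and Crygs lie between 1.18 and 1.70, and Cryab lies at -0.07.

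In FoxO6-/- against wild type mandible and maxilla only Cryab was measured, and it was less than 2-fold apart, which leaves 0 of 1 called in either direction. Over all 12186 genes measured there, 0.591% were higher by 2-fold or more in FoxO6-/- and 1.69% were lower. The signals of the other 9 genes on these arrays lay between 0.987 and 66.4, and a ratio of such values has no order.

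Between tissues, 9 genes were measured in each genotype, and 8 were at least 2-fold lower in mandible and maxilla than in brain in both, with 0 at least 2-fold higher. In wild type 9.8% of all 12573 measured genes were at least 2-fold lower in mandible and maxilla and 8.45% higher, and in FoxO6-/- 11.8% of 12535 were lower and 7.85% higher. The median log2 ratio of the measured crystallin genes was -5.84 in wild type and -7.57 in FoxO6-/-, against 0.05 and 0.06 over all measured genes. These 8 genes reached the floor only through the brain arrays, so they had to differ, and the tissue contrast too was among the values that chose them. The log2 ratios ran as far as -11.23 and -11.32, in Crygd, but their size rests on mandible and maxilla signals far below the floor, and the bounds given with each gene are the firmer values.

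Other crystallin genes, outside the list described, were looked up by name. Values were available for 4 further members of the gamma and related families. Cryga had 3751 in wild type brain and 9175 in FoxO6-/- brain (log2 ratio 1.29), Crygf 3867 and 8785 (1.18), from a probe set that may also detect its near copies, Crygn 300 and 741 (1.30), and Crygs, the crystallin of the lens cortex, 289 and 935 (1.70). All 4 were at least 2-fold higher in FoxO6-/- brain and below the floor in both mandible and maxilla arrays, so they repeat the pattern of the 8 genes, on the same arrays. Cryge had no probe set here and Crygc none of its own.

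The 7 genes that carry the crystallin name through an enzyme or a distant relation were different. They are Crym, a thyroid hormone binding protein, Cryz and Cryzl1, quinone oxidoreductase relatives, Cryl1, a sugar dehydrogenase, and Crybg1, Crybg2 and Crybg3, large proteins with beta/gamma-crystallin domains. All 7 were measured in both tissues, and their brain log2 ratios ran from -0.15 (Cryz) to 0.61 (Crybg1) with a median of 0.29 and 0 of 7 past 2-fold. In mandible and maxilla their median was 0.04.

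Markers of lens and eye other than crystallins were then examined on the same brain arrays, where 57.3% of all measured genes had a higher signal in FoxO6-/-. Of 13 genes of the lens fibre membrane and cytoskeleton 10 had a probe set and 7 were measured in the brain pair, 6 of them with a higher signal in FoxO6-/-. Of these, 2 were 2-fold or more apart, and the median log2 ratio of the 7 was 0.90. Mip, the lens water channel aquaporin 0, had 283 in wild type brain and 577 in FoxO6-/- brain (1.03), and Lim2, a fibre membrane protein, 228 and 596 (1.39). Bfsp1 and Bfsp2, which form the beaded filaments of fibre cells, had log2 ratios of 0.99 and 0.90, and the gap junction gene Gja3 had 0.61. Gja3 does not mark lens alone here, since its signals of 512 and 570 in wild type and FoxO6-/- mandible and maxilla were above its 260 and 397 in wild type and FoxO6-/- brain. The RNA-binding protein genes Tdrd7 and Caprin2, which lens shares with other tissues, had 0.34 and -0.08. Of 12 lens transcription factor genes, which brain and jaw also use, 8 were measured in brain with a median log2 ratio of 0.20 and 0 past 2-fold. Pax6 had 501 and 825 in wild type and FoxO6-/- brain, Six3 282 and 472, and Maf 3131 and 3598.

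**Figure D4:**
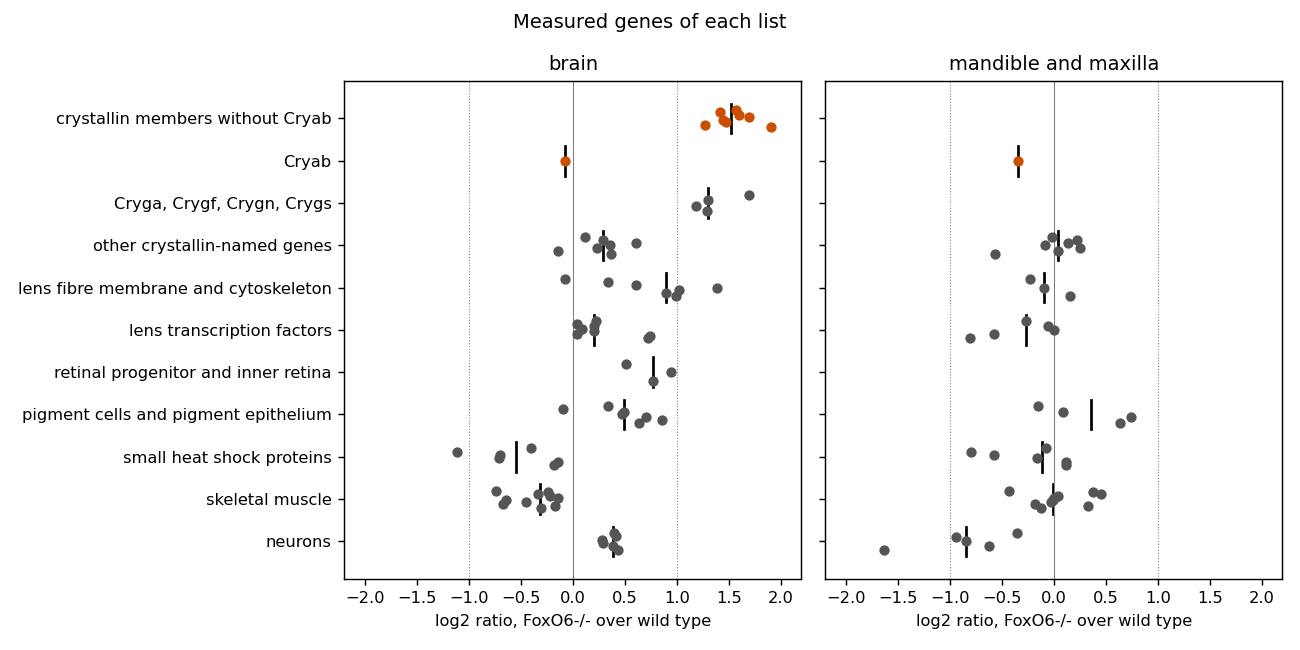
log2 ratio of FoxO6-/- over wild type in brain (left) and in mandible and maxilla (right) for each measured gene of the lists named on the axis, 1 point per gene, with a black bar at the median of the list and dotted lines at 2-fold. In brain the crystallin genes without Cryab have a median of 1.52, lens fibre genes 0.90, small heat shock protein genes -0.55 and neuron genes 0.39.

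Markers of other parts of the eye were also above the floor on the brain arrays. Atoh7, a factor of retinal ganglion cell precursors, had 345 in wild type and 664 in FoxO6-/- brain. Of the list of retinal progenitor and inner retina genes, 3 of 5 with a probe set were measured, with a median log2 ratio of 0.77. They were Atoh7 (0.94), Six6 (0.77) and Rlbp1 (0.51). Six6 stood just over the floor in wild type brain, at 106, with 180 in FoxO6-/- brain. Whether the RNA of these genes came from eye or from brain was not tested. Of 12 pigment cell genes 7 were measured, 6 with a higher FoxO6-/- signal and a median of 0.49, among them the melanin synthesis genes Dct, at 977 and 1586, and Tyrp1, at 371 and 675. Both were also above the floor in mandible and maxilla, Dct at 494 and 826 (log2 0.74, beside 0.70 in brain) and Tyrp1 at 179 and 277 (0.63, beside 0.86), where the crystallin genes other than Cryab were not. Of 14 photoreceptor genes with a probe set 0 reached the floor on any array, with a highest signal of 81.4. The summed signal of the lens fibre list was 2132 in wild type and 3473 in FoxO6-/- brain, that of the pigment list 3037 and 4294, and that of the retinal list 977 and 1562. These sums move with the crystallin signals between the brain arrays, and their part in the crystallin ratios was not tested.

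The brain arrays also held RNA of tissue other than brain and eye. All 10 skeletal muscle genes were above the floor there, between 762 and 21861, and 10 of 10 were lower in FoxO6-/- than in wild type brain, with a median log2 ratio of -0.32 and sums of 107423 and 87620. Of the other marker lists, 5 measured glial genes had a median log2 ratio of 0.04 in brain, 2 cornea genes 0.38 and 2 bone genes -0.19. The bone matrix genes Ibsp and Col1a1 had 10179 and 11231 in wild type brain, while the enamel and dentin genes Amelx, Ambn and Dspp were below the floor on both brain arrays. The 6 neuron genes were above the floor on both brain arrays, and 6 of 6 had a higher signal in FoxO6-/-, as 57.3% of all measured genes did, with a median log2 ratio of 0.39. Other such genes were higher in FoxO6-/- brain. The secretory gene Bpifa1 had 1408 in wild type and 8964 in FoxO6-/- brain (log2 ratio 2.67). The cartilage genes Cnmd and Matn1 had 2121 and 6624 (1.64) and 1823 and 4724 (1.37). They were picked from genes with a higher FoxO6-/- signal, so they give no share. The muscle signals moved between the brain arrays in the direction opposite to the crystallins. Bpifa1, Cnmd and Matn1 moved in the same direction as the crystallins, and so, by less, did the neuron signals. The part of tissue composition in the crystallin ratios was not tested. In mandible and maxilla, where 48.7% of all measured genes had a higher signal in FoxO6-/-, 5 of 5 measured neuron genes had a lower one, with a median of -0.85. The 3′/5′ ratio of Actb, a measure of RNA integrity, was 2.21 and 2.22 on the wild type and FoxO6-/- brain arrays and 2.23 and 3.37 on the wild type and FoxO6-/- mandible and maxilla arrays.

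The genes outside the list whose 4 signals ran most like the median profile of the 9 measured crystallin genes were ranked by Euclidean distance between log2 signals centred on each gene's mean, over 4 arrays and 12560 genes. The closest were Gh, growth hormone, at a distance of 0.78, and Oc90, an inner ear otoconia protein gene, at 0.87, followed by Ankrd34b, Glra2, Lmo3, Sez6, Lhx1, Crygn, Slc38a5 and Vgf, up to 1.39. Gh had 2976 and 4603 in wild type and FoxO6-/- brain, and Oc90 249 and 384. Of the 10, only Crygn is also a crystallin. Within the list, Crybb1 lay on the median profile with a distance of 0, Cryaa at 0.29, Crygd at 4.77 and Cryab at 7.49. The measure is governed by the difference between tissues, including signals below the floor, and the brain log2 ratios of the closest genes, Gh and Oc90, were both 0.63, under those of the 8 crystallin genes.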

How the data were processed

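RNA of 4 groups was measured on 1 array each, with tissue and genotype taken from the labels. The authors normalized the arrays with MAS5, and the deposited intensity is that signal, linear and scaled to a common trimmed mean. Which MAS5 version was run is not given in the sources used. Values were used as deposited. Of 45101 probe sets 64 are controls, 34945 name 1 gene, 932 name several and 9160 are unnamed here, by platform annotation that can be old. The number of arrays limits the precision.

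A gene was its brightest single-gene probe set, measured where the mean compared signal reached the floor of 101, the median of all signals. Ratios are log2 of linear signals with no pseudocount, and genes at least 2-fold apart were counted. No test was run: each group has 1 array, and the limma test of the authors' methods was left out because the genes were chosen by these contrasts. The members and all gene lists were chosen with earlier results of these data known. Named genes were the members, other crystallin-named genes, from each list genes among the 2 highest and 2 lowest ratios in each tissue, Hspb2, and the 10 nearest profiles. Bfsp1, Bfsp2, Hspb8, Col1a1 and markers given to check the tissue were added by role. Bpifa1, Cnmd and Matn1 were added from the genes with a higher signal in FoxO6-/- brain. Photoreceptor, retina, pigment, cornea, muscle, glia, bone and neuron lists were read as marker checks. Scripts were tested on simulated data and ran in Python 3.11.15 with numpy 2.4.6, pandas 2.3.3 and matplotlib 3.10.9. Alternatives were quantile normalization, median centring, other floors, leaving out probe sets with the suffixes _a_at, _s_at and _x_at, averaging over a gene's probe sets, and setting signals under the floor to it.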

Additional observations from a re-analysis of the deposited data

Results flagged for a closer look

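Some genes named by the rule had a FoxO6-/- over wild type log2 ratio of opposite sign in mandible and maxilla and in brain, which drew attention to them; with 1 array per group the difference was not tested. Of the 10 crystallin genes only Cryab was measured in both tissues. Its brightest probe set had -0.35 and -0.07, but the signs were opposite with median centring (-0.22 and 0.07) and with the mean of its probe sets (-0.38 and 0.06). Of the crystallin-named genes, Crym had -0.57 in mandible and maxilla and 0.37 in brain, Cryz 0.044 and -0.15, Cryl1 -0.084 and 0.36, and Crybg3 -0.014 and 0.12. Of the lens genes, Tdrd7 had -0.092 and 0.34, Six3 -0.81 and 0.74, Sox2 -0.58 and 0.20, and Meis1 -0.061 and 0.043. The small heat shock protein genes Hspb1 and Hspb2 each had 0.12 in mandible and maxilla, and -0.18 and -0.15 in brain.

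Of the muscle markers, Acta1 had 0.33 in mandible and maxilla and -0.18 in brain, Mylpf 0.45 and -0.33, and Myl1 0.38 and -0.24. The bone gene Ibsp had 0.23 and -0.11, the corneal keratin gene Krt12 -0.028 and 0.28, and the astrocyte water channel gene Aqp4 -0.90 and 0.41. Of the neuron markers, Snap25 had -1.64 and 0.44, Syt1 -0.62 and 0.39, Tubb3 -0.85 and 0.28, Stmn2 -0.94 and 0.42, and Gap43 -0.36 and 0.39. With median centring the signs of Cryl1, Crybg3, Tdrd7, Meis1, Ibsp and Krt12 were no longer opposite. With quantile normalization this held for Crybg3, Meis1, Hspb1, Acta1, Mylpf, Myl1, Ibsp and Krt12, and with ratios averaged over a gene's probe sets for Meis1.

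The mandible and maxilla over brain log2 ratio had opposite signs in wild type and FoxO6-/- for Crym, with 0.29 and -0.64, for Six3, with 0.020 and -1.53, and for Krt12, with 0.019 and -0.29, and these differences were not tested either. The wild type values of Six3 and Krt12 turned below 0 with median centring and with quantile normalization.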

How the results depend on the processing

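In FoxO6-/- against wild type brain, each of 82 recomputed values stayed near its first value. Near means counts within 1.5 times and log2 ratios within 0.39, the SD between probe sets of a gene. The log2 ratios of the 8 genes ran from 1.27 to 2.06. These genes have 1 probe set each and stood above the floor on both brain arrays. Only quantile normalization and median centring could therefore change their ratios, and the other alternatives could only repeat a ratio or drop a gene. Cryab, at -0.07, changed sign with median centring (0.07) and with the mean of its probe sets (0.06). In FoxO6-/- against wild type mandible and maxilla with no floor, 3 genes were at least 2-fold higher and 2 lower, with a median log2 ratio of 0.45 beside -0.35 with the floor, from 10 genes in place of 1. In mandible and maxilla against brain in wild type, the median was -5.84. A floor at the 75th percentile of all signals (524) left 5 genes at least 2-fold lower and a median of -7.30. Leaving out probe sets with the suffixes _a_at, _s_at and _x_at gave a median of -7.25, and signals raised to the floor gave -3.44. In FoxO6-/- signals raised to the floor gave -5.30 beside -7.57. Without probe sets of these suffixes, 7 of the genes were left measured in brain and 0 in mandible and maxilla between genotypes. The Cryaa probe set and the brighter Cryab probe sets end in _a_at and so dropped out. Median centring moved the median of all genes by 0.14 in brain and 0.13 in mandible and maxilla between genotypes, and by -0.12 and -0.13 between tissues in wild type and FoxO6-/-. Of all genes at least 2-fold apart in brain, 35.7% were higher in FoxO6-/-, 54.2% with median centring, 53.6% with no floor and 24% with the higher floor. In mandible and maxilla 25.9% were higher, 44.2% with quantile normalization, 49.2% with median centring and 49.7% with no floor. With median centring, 4 lens fibre genes in place of 2 were at least 2-fold higher in FoxO6-/- brain, and 0 small heat shock protein genes in place of 1 were at least 2-fold lower. With 1 array per group, no replicate could be left out. A fit with tissue and genotype as terms, which would pair the genotypes within tissues, could be made on the 4 arrays but was left out, because the genes were chosen by these contrasts. Levels under the floor set no order, so for 9 of the 10 genes the mandible and maxilla arrays give only an upper limit.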

Other observations

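With signals below the floor raised to it, an alternative chosen after seeing the data, other genes stood nearest to the crystallin profile. They were Tafa2, at a distance of 0.95, Rbfox3, Arhgef7, Scg5, Adgrb3, Syt16, Sez6l2, Kcnd2, Chgb and Fut9, so the nearest genes depend on signals that are not measured in mandible and maxilla.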
